A study of Mus musculus with 6 samples.

Results

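The chemokine receptors and the fractalkine axis were followed in hypoxic heart cells as 9 genes chosen by name, of 57010 genes in the count table. They are Cx3cl1, which encodes the membrane-bound chemokine fractalkine, its receptor gene Cx3cr1, the chemokine receptor genes Ccr1, Ccr2 and Cxcr4, the chemerin-binding receptor gene Ccrl2, and the atypical receptor genes Ackr2, Ackr3 and Ackr4. RNA-seq had been run on 6 libraries of primary neonatal mouse cardiomyocytes (NMCMs), prepared from newborn C57BL/6 mice by differential adhesion and kept under hypoxia (HO). The HO + Vehicle group held 3 libraries (V1 to V3) and the HO + β-SITO group held 3 (T4 to T6). β-SITO is β-sitosterol, a plant sterol. Every library came from hypoxic cells, so no normoxic level was compared, and the dose and the hours of hypoxia for these libraries are not given in the sources used here. Nothing in the labels says that the libraries came from separate cultures, and the p-values then measure the spread between these libraries, which may be technical. The count columns of the β-SITO libraries carry a suffix that those of the vehicle libraries lack, so a separate preparation and the treatment cannot be told apart.

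Chemokine receptors are G protein-coupled receptors that steer migrating cells along gradients of chemokines. Atypical receptors bind chemokines without coupling to G proteins in the usual way, and by taking up their ligands they shape these gradients. Fractalkine is made as an adhesion molecule on endothelial and other stromal cells and is cut from the membrane by proteases, while its receptor is carried mainly by monocytes and tissue macrophages, including those of the heart.

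Total counts lay between 16694734 and 18460522 per library, and 3 counts came to 0.154 to 0.189 CPM, the usual depth-scaled count, here relative to the TMM library size. The cultures were mixed. Tnnt2, a cardiomyocyte gene, stood at 1236 ± 11.0 CPM in HO + Vehicle and 892 ± 146 in HO + β-SITO. These are mean ± SD, with n = 3 in every group here and below. Tnnt2 alone does not describe the 10 cardiomyocyte markers, which summed to 5921 to 6815 CPM in HO + Vehicle and 5371 to 9167 in HO + β-SITO. The summed level of 7 fibroblast markers was 19612 to 20640 CPM in the vehicle libraries and 25978 to 26328 in the β-SITO libraries. Most of this sum came from Col1a1 and Col1a2, which rose from 9100 ± 462 to 12197 ± 78.4 and from 6800 ± 367 to 10215 ± 66.1 CPM. Of the other fibroblast markers, Lum and Tcf21 rose, Dcn fell, and Pdgfra and Postn overlapped between the groups. Summed levels of 12 macrophage markers were 1375 to 1502 CPM in HO + Vehicle and 2871 to 3524 in HO + β-SITO. In bulk libraries, fewer cells of a type and less RNA per cell cannot be told apart.

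The library T4 stood apart from T5 and T6. Counts differed with a chi-square per degree of freedom of 8.49 between T4 and T5 and 9.001 between T4 and T6, against 1.94 between T5 and T6, while the vehicle pairs lay between 4.58 and 7.28. The 10 cardiomyocyte markers summed to 5371 CPM in T4 and to 9020 and 9167 in T5 and T6. Without T4 the log2 fold changes were 3.77 for Cx3cr1, -1.71 for Cx3cl1, 1.22 for Ccr1, -4.48 for Ccrl2, 2.79 for Cxcr4, 3.84 for Ackr2, -1.23 for Ackr3 and 4.78 for Ackr4, and each of these 8 genes kept the call that it has below with all libraries.

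β-SITO libraries held more Cx3cr1, Ccr1, Cxcr4, Ackr2 and Ackr4 RNA and less Cx3cl1, Ccrl2 and Ackr3 RNA. Of the 8 members that could be tested, 5 were higher and 3 lower as differentially expressed genes (DEGs), defined by an adjusted p under 0.05 and more than a 2-fold change in edgeR's quasi-likelihood test. Among all 14799 tested genes, 22.8% were DEGs, 12.8% in the higher direction and 10.1% in the lower, and on the adjusted p alone 33.0% were higher and 33.8% lower. The median log2 fold change was 1.99 over the tested members and -0.01 over all tested genes. Ackr2 and Ackr4, with at most 4 and 3 counts in any vehicle library, passed the count filter only through the β-SITO libraries. Both are among the 5 higher members and raised this median, so it is no measure of a shared shift. The ninth member, Ccr2, had too few counts to be tested. For each of the 9 members the groups did not overlap, which was also true of 34.8% of all tested genes in the higher direction and 35.8% in the lower. The exact two-sided permutation test on 3 against 3 libraries cannot give a p under 0.1, and each member reached that value.

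**Figure D1:**
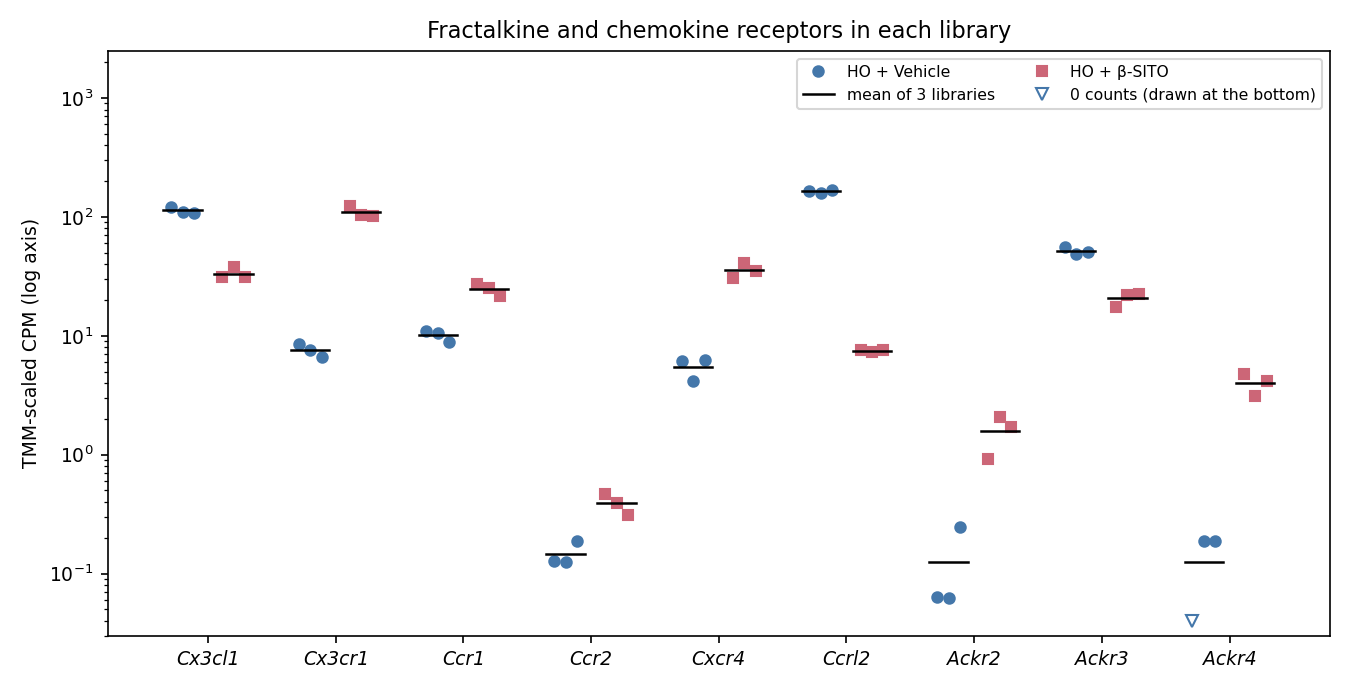
TMM-scaled CPM of the 9 genes on a log axis, with 1 point for each library and a line at the mean of the 3 libraries of a group; the open triangle at the bottom is the library V1, with 0 counts of Ackr4. Cx3cl1, Ccrl2 and Ackr3 lie lower in the HO + β-SITO libraries and the other 6 genes lie higher, with no overlap between the groups for any of the 9.

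The fractalkine pair moved in opposite directions. Cx3cl1 (ENSMUSG00000031778, chr8:95498637-95509055 of GRCm39, plus strand) stood at 122, 111 and 108 CPM in the vehicle libraries and at 30.9, 37.9 and 31.4 in the β-SITO libraries. Its mean fell from 113 ± 7.43 to 33.4 ± 3.89 CPM, a 3.40-fold lower level (log2 fold change -1.76, SE 0.08, 95% interval -1.94 to -1.59, adjusted p = 2.99e-11 in edgeR's quasi-likelihood test). All 3 β-SITO libraries lay well under the lowest vehicle library.

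Cx3cr1 (ENSMUSG00000052336, chr9:119730682-119898945 of GRCm39, minus strand) stood at 8.46, 7.59 and 6.63 CPM in the vehicle libraries and at 123, 105 and 102 in the β-SITO libraries. The mean rose from 7.56 ± 0.916 to 109.8 ± 11.3 CPM, which was 14.5-fold higher (log2 fold change 3.86, SE 0.10, 95% interval 3.64 to 4.08, edgeR adjusted p = 3.07e-14). Only 0.480% of all tested genes, 71 genes, rose by more. Counts behind these values were 134, 121 and 107 in HO + Vehicle and 2390, 1861 and 1960 in HO + β-SITO. The annotated span of Cx3cr1 overlaps other genes, among them Csrnp1, which was lower in HO + β-SITO (log2 fold change -1.58), and Wdr48, at -0.22. Whether reads were counted by strand is not given in the sources used here.

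With a level scaled to gene length, different genes can be set side by side. On the scale of CPM per kb of exon, Cx3cl1 was the higher of the pair in HO + Vehicle, with a mean level of 28.8 against 1.68 for Cx3cr1. In HO + β-SITO the order was turned, with 24.4 for Cx3cr1 and 8.50 for Cx3cl1.

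Fractalkine has to be cut to become soluble, and the genes of the cutting machinery were split. Of 4 shedding genes, 2 were lower DEGs and 2 passed the adjusted p with changes under 2-fold. Adam17, the protease of induced shedding, fell from 233 ± 9.95 to 102 ± 4.63 CPM (log2 fold change -1.20, edgeR adjusted p = 8.89e-11). Rhbdf2, whose product iRhom2 carries ADAM17 to the cell surface, fell from 55.0 ± 2.86 to 23.5 ± 1.15 CPM (log2 fold change -1.23, edgeR adjusted p = 6.41e-10). Adam10, the protease of constitutive shedding, stood at 158 ± 6.85 and 186 ± 6.79 CPM, and Ctss, encoding cathepsin S, at 113 ± 14.0 and 152 ± 19.4 CPM.

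Genes whose libraries followed Cx3cr1 and Cx3cl1 most closely were looked for by the distance between log2 profiles over the 6 libraries, each centred on its own mean, among all tested genes. St6gal1, encoding a sialyltransferase, was nearest to Cx3cr1 (distance 0.0868, log2 fold change 3.87), followed by the imprinted noncoding RNA H19 (0.171, 3.91) and Lrrc17 (0.186, 4.06). The nearest profiles to Cx3cl1 were those of Agrn, encoding the matrix proteoglycan agrin (distance 0.170, log2 fold change -1.82), Hs6st2, a heparan sulfate sulfotransferase gene (0.176, -1.79), and Serpinb1a, a protease inhibitor gene (0.187, -1.70). Since the same 6 libraries gave every profile, and a like group difference sets most of the distance, this is a description of these libraries.

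Ccr1 was higher with β-SITO, while the genes for ligands of CC chemokine receptors were mostly lower. Ccr1 (ENSMUSG00000025804, chr9:123762161-123768729 of GRCm39, minus strand), a receptor of CCL3, CCL5 and CCL7 on myeloid cells, stood at 10.9, 10.5 and 8.93 CPM in HO + Vehicle and at 27.2, 25.5 and 21.6 in HO + β-SITO. Its mean level was 10.1 ± 1.05 and 24.7 ± 2.86 CPM, 2.45-fold higher with β-SITO (log2 fold change 1.29, SE 0.11, 95% interval 1.06 to 1.53, edgeR adjusted p = 4.84e-08). It was the least changed of the tested members that rose, and 9.07% of all tested genes rose by more.

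Ccr2 (ENSMUSG00000049103, chr9:123901987-123913594 of GRCm39, plus strand), the receptor of CCL2 that marks monocytes recruited from blood, was close to the limit of detection. It had 2, 2 and 3 counts in the vehicle libraries and 9, 7 and 6 in the β-SITO libraries. Summed over libraries, these 7 and 22 counts gave a ratio of 2.67 with an exact 95% interval of 1.10 to 7.39, which covers counting error only.

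Ccr1 and Ccr2 lie in a cluster of chemokine receptor genes on chromosome 9. There the starts of Ccr3 and Ccr2 lie 59.8 and 140 kb from the start of Ccr1. Ccr3 had at most 8 counts in any library, Cxcr6 at most 5, and Ccr1l1 none.

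Among 15 genes for ligands of the member receptors, 14 were tested, and 9 of these were lower DEGs and 0 higher DEGs. Among all tested genes, 10.1% were lower DEGs and 12.8% higher DEGs. The median log2 fold change of the tested ligand genes was -2.64. Ccl5, Ccl19 and Cxcl11 passed the count filter only through the vehicle libraries. They are among the 9 lower DEGs and lowered this median, so it is no measure of a shared shift. Ccl2, the ligand of CCR2, fell from 2804 ± 297 to 19.7 ± 4.44 CPM (log2 fold change -7.15, edgeR adjusted p = 1.10e-15), and Ccl7 from 926 ± 104 to 7.88 ± 1.94 CPM (log2 fold change -6.87). Ccl5 went from 25552, 30479 and 27241 counts in the vehicle libraries to 8, 6 and 7 counts in the β-SITO libraries. Ccl3, Ccl12 and Ccl9 were lower by log2 fold changes of -4.39, -3.12 and -2.15. Ccl6, another ligand of CCR1, went the other way within 2-fold, from 20.6 ± 3.70 to 38.6 ± 5.18 CPM (log2 fold change 0.91, edgeR adjusted p = 7.51e-06).

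**Figure D2:**
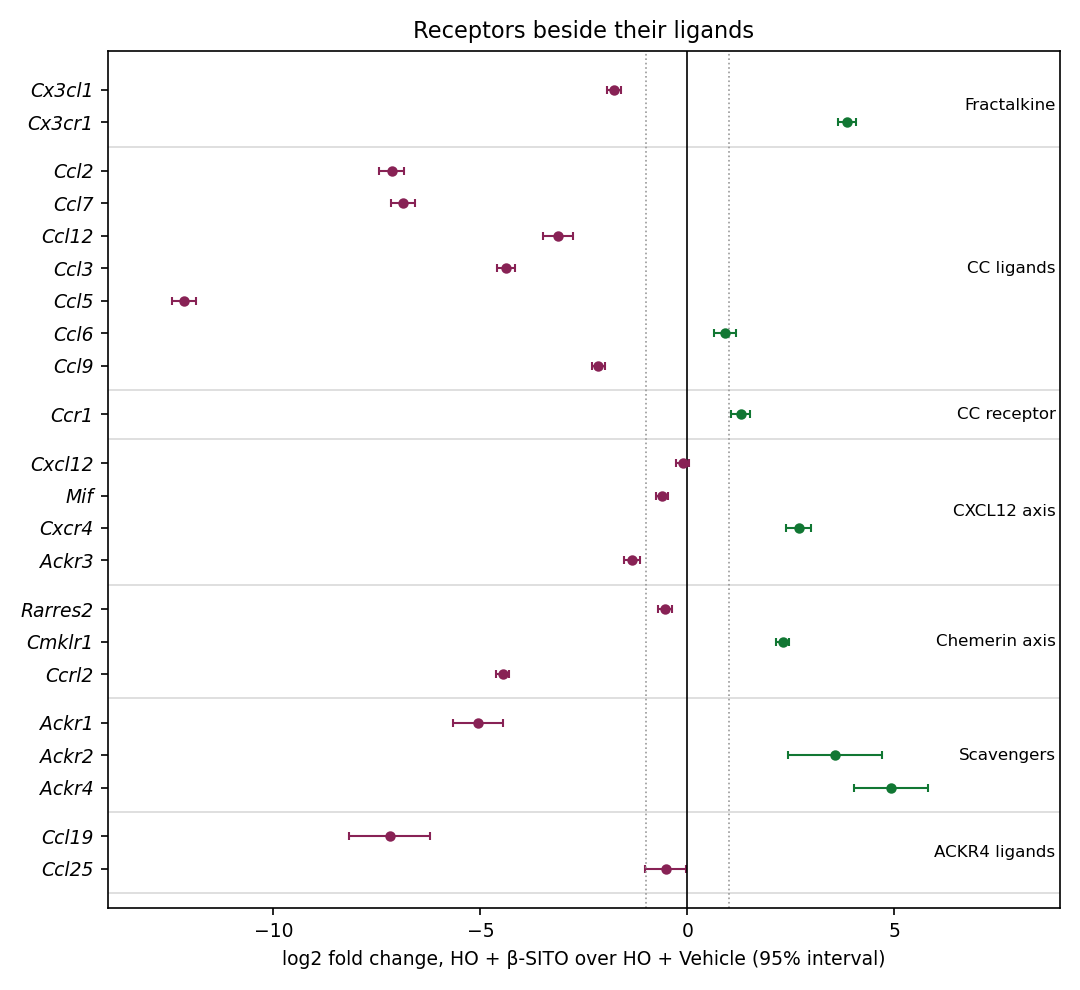
Log2 fold change of HO + β-SITO over HO + Vehicle with its 95% interval (edgeR's quasi-likelihood fit, 3 libraries a group) for the member genes, other tested receptors and ligands, grouped by axis; dotted lines mark 2-fold. Cx3cr1, Ccr1, Cxcr4, Cmklr1, Ackr2 and Ackr4 lie to the right of the upper dotted line, while Ccl2, Ccl7 and Ccl5 lie far to the left.

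Cxcr4 and Ackr3 encode the receptors of CXCL12, and they moved apart. CXCR4 signals through G proteins and holds cells near sources of CXCL12, while ACKR3 removes CXCL12 from the surroundings. Cxcr4 (ENSMUSG00000045382, chr1:128515936-128520030 of GRCm39, minus strand) stood at 6.19, 4.14 and 6.20 CPM in HO + Vehicle and at 30.4, 41.3 and 35.2 in HO + β-SITO. The mean rose from 5.51 ± 1.19 to 35.6 ± 5.43 CPM, 6.45-fold (log2 fold change 2.69, SE 0.14, 95% interval 2.38 to 2.997, edgeR adjusted p = 1.84e-10). Libraries of this gene were more spread than those of Ccrl2 or Cx3cl1, yet the lowest β-SITO library was far above the highest vehicle library.

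Ackr3 (ENSMUSG00000044337, chr1:90131702-90144473 of GRCm39, plus strand) stood at 55.8, 49.2 and 50.2 CPM in HO + Vehicle and at 17.6, 21.9 and 22.3 in HO + β-SITO. It fell from 51.7 ± 3.54 to 20.6 ± 2.62 CPM and was 2.51-fold lower (log2 fold change -1.33, SE 0.09, 95% interval -1.53 to -1.13, edgeR adjusted p = 4.11e-09). On the scale of CPM per kb, the mean level of Ackr3 was 15.5 against 3.05 for Cxcr4 in HO + Vehicle, and 6.15 against 19.7 in HO + β-SITO. The signalling receptor was thus the lower of the pair without β-SITO and the higher with it.

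Their shared ligand gene, Cxcl12, stood at 553, 511 and 556 CPM in the vehicle libraries and at 444, 524 and 531 in the β-SITO libraries. These ranges overlapped, and the log2 fold change of -0.11 (95% interval -0.27 to 0.04, edgeR adjusted p = 0.183) did not pass the test. Its sign turned under other scalings. Adm, encoding adrenomedullin, which ACKR3 also binds, fell from 579.8 ± 24.1 to 189 ± 11.6 CPM (log2 fold change -1.62). Cxcl11, the other chemokine of ACKR3, had 825, 1054 and 971 counts in the vehicle libraries and 0 in every β-SITO library, which was at least 352.6-fold lower against a floor of 3 counts per library. Mif, whose product binds CXCR4, changed by less than 2-fold, with a log2 fold change of -0.62.

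Ccrl2 was the most changed of the members that fell. CCRL2 binds chemerin and presents it to cells that carry the chemerin receptor CMKLR1, without signalling itself. Ccrl2 (ENSMUSG00000043953, chr9:110883554-110886587 of GRCm39, minus strand) stood at 166, 159 and 169.5 CPM in HO + Vehicle and at 7.66, 7.25 and 7.55 in HO + β-SITO. The mean fell from 165 ± 5.41 to 7.49 ± 0.210 CPM, 22.0-fold lower (log2 fold change -4.46, SE 0.07, 95% interval -4.61 to -4.30, edgeR adjusted p = 1.67e-16). The spread within either group was small beside this, and 1.70% of all tested genes fell by more.

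The other genes of the chemerin axis changed by less, and in different directions. Cmklr1, the signalling receptor, stood at 12.8, 12.3 and 12.95 CPM in HO + Vehicle and at 64.7, 63.2 and 60.0 in HO + β-SITO, a rise (log2 fold change 2.30, SE 0.07, edgeR adjusted p = 3.64e-13). Rarres2, the gene of chemerin itself, fell from 158 ± 20.4 to 109 ± 6.46 CPM without overlap, a change under 2-fold (log2 fold change -0.54, edgeR adjusted p = 2.90e-05). Gpr1, a further chemerin receptor gene, had 0 counts in each vehicle library and 1 in each β-SITO library.

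Promoter sequences from RefSeq (GRCm38.p6) were found for all 9 members, in 11 windows of the 250 bases before a transcription start, and 7 motifs were searched on both strands. The NF-kB consensus was found in windows of Ccrl2 and Ackr2, and in 3.90% of all 32851 promoter windows of this length. These promoters are printed because their genes hold the same motif and moved in opposite directions. The capitals mark the NF-kB matches, which begin 56 bases before the start in Ccrl2 (chr9:111057520-111057768, minus strand, without the base next to the start, where another transcript of the gene begins) and 224 and 64 bases before it in Ackr2 (chr9:121898105-121898354, plus strand).
Ccrl2: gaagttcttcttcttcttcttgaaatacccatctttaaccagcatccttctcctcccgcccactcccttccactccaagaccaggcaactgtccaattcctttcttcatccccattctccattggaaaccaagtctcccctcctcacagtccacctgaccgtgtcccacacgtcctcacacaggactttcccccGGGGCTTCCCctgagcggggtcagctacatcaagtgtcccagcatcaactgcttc
Ackr2: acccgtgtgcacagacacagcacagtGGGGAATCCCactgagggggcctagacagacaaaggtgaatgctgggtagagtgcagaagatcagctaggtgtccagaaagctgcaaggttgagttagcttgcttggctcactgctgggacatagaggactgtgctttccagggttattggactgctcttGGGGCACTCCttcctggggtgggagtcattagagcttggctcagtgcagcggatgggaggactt
The hypoxia response element core, ACGTG, was found in Ccrl2 and Ackr4 and in 16.6% of all windows. No member held the interferon-stimulated response element, ISRE (2.98% of all windows), the GAS element TTCNNNGAA (7.02%), the AP-1 site TGANTCA (6.75%), the PU.1 site GAGGAAGT (2.44%) or the RBPJ site GTGGGAA (5.42%). A match of letters is not evidence that a factor was bound.

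Ackr2 and Ackr4 were nearly silent in the vehicle libraries and measurable in the β-SITO libraries. ACKR2 takes up and degrades inflammatory CC chemokines, among them CCL2, CCL3 and CCL5. Ackr2 (ENSMUSG00000044534, chr9:121727421-121740140 of GRCm39, plus strand) had 1, 1 and 4 counts in HO + Vehicle and 18, 37 and 33 in HO + β-SITO. The level rose from 0.125 ± 0.107 to 1.57 ± 0.591 CPM (log2 fold change 3.57, SE 0.53, 95% interval 2.44 to 4.70, edgeR adjusted p = 2.36e-05). Summed counts of 6 and 88 gave a ratio of 12.4, with an exact 95% counting interval of 5.50 to 34.8, which is a wide range of sizes above 1. Of the vehicle counts, 4 were in V3, and without it the log2 fold change was 4.51.

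ACKR4 removes CCL19, CCL21 and CCL25, the chemokines that guide cells bearing CCR7 and CCR9. Ackr4 (ENSMUSG00000079355, chr9:103961356-104004132 of GRCm39, minus strand) had 0, 3 and 3 counts in HO + Vehicle and 92, 55 and 80 in HO + β-SITO. The level rose from 0.125 ± 0.108 to 3.99 ± 0.831 CPM (log2 fold change 4.92, SE 0.42, 95% interval 4.02 to 5.82, edgeR adjusted p = 5.66e-08). Summed counts of 6 and 227 gave a ratio of 32.1, with an exact 95% counting interval of 14.5 to 88.4. Only 25 of all tested genes rose by more on the fitted scale. Ackr4 overlaps Acad11 on the other strand and shares 284 of its 5278 windows of 100 bases (5.38%) with it. Acad11 itself had a log2 fold change of 0.60, within 2-fold.

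Of the ligand genes of ACKR4, Ccl19 had 82, 125 and 92 counts in the vehicle libraries and 0, 0 and 2 in the β-SITO libraries. Its summed counts of 299 and 2 gave a 176-fold lower level with an exact 95% counting interval of 48.3 to 1460. Both β-SITO counts were in T6, and the log2 fold change of Ccl19 was -7.20 with all libraries and -9.73 without T6, where the β-SITO group is at 0 and the fitted value is no bound. Ccl25 stood at 2.31 ± 0.425 and 1.61 ± 0.174 CPM and did not pass the test (log2 fold change -0.52, edgeR adjusted p = 0.0560).

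The remaining atypical receptor gene, Ackr1, went against Ackr2 and Ackr4. ACKR1 carries chemokines across the endothelium of venules. Ackr1 had 150, 143 and 141 counts in HO + Vehicle and 6, 8 and 1 in HO + β-SITO, and it was a lower DEG (log2 fold change -5.05, SE 0.28, edgeR adjusted p = 3.51e-10). Its summed counts gave a 34.1-fold lower level, with an exact 95% counting interval of 20.4 to 61.4. Of 16 other chemokine receptor genes, 2 passed the filter on counts. Cxcr3 had 0, 0 and 1 counts in HO + Vehicle and 13, 10 and 3 in HO + β-SITO, which in sum gave a ratio of 22.1 with a 95% counting interval of 3.62 to 905. Ccr10 had 3, 6 and 6 counts and 12, 9 and 6 counts, with overlapping groups. Ccr8, Ccr1l1 and Cxcr1 had 0 counts in each library, which allows up to 0.154 to 0.189 CPM.

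Ordered by level per kb, the members changed places between the groups. In HO + Vehicle the mean CPM per kb was 63.5 for Ccrl2, 28.8 for Cx3cl1 and 15.5 for Ackr3, with no overlap between neighbours. Ccr1 at 3.57 and Cxcr4 at 3.05 overlapped each other, and Cx3cr1 at 1.68 lay under both. Ackr2, Ackr4 and Ccr2 came last, at 0.0398, 0.0232 and 0.0216, and each overlapped its neighbour in the order.
In HO + β-SITO the order began with Cx3cr1 at 24.4 and Cxcr4 at 19.7 CPM per kb, whose ranges overlapped, then Ccr1 at 8.74 and Cx3cl1 at 8.50, which overlapped too. Ackr3 at 6.15 and Ccrl2 at 2.88 followed without overlap. Ackr4 at 0.742 and Ackr2 at 0.503 overlapped, and Ccr2 at 0.0576 was again the lowest.

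**Figure D3:**
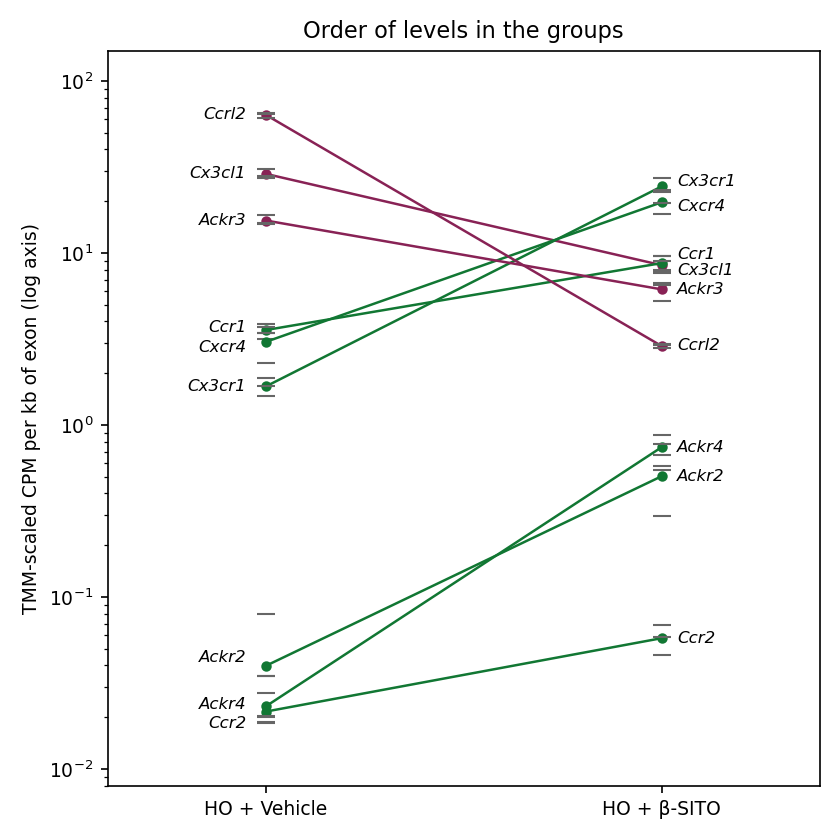
Mean TMM-scaled CPM per kb of exon of the 9 genes on a log axis in the HO + Vehicle and HO + β-SITO groups, with short bars for the single libraries (the library with 0 counts of Ackr4 has no bar). Ccrl2 goes from first at 63.5 to sixth at 2.88, and Cx3cr1 from sixth at 1.68 to first at 24.4.

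Several members are known from macrophages, and macrophage markers moved between the groups as well. Of 12 macrophage markers, 8 were higher DEGs and 2, Fcgr1 and Cd14, were lower DEGs. Csf1r, the receptor gene of the main macrophage growth factor, rose from 75.4 ± 3.07 to 219 ± 17.2 CPM, while Adgre1, encoding F4/80, stood at 152 ± 7.21 and 145 ± 15.2 CPM (log2 fold change -0.06, edgeR adjusted p = 0.471). The levels of Cx3cr1, Ccr1, Ccr2 and Ccrl2 were therefore also given per 1000 counts of the 12 markers in the same library.

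Cx3cr1 had 6.16, 5.05 and 4.67 counts per 1000 marker counts in the vehicle libraries and 34.9, 36.2 and 35.5 in the β-SITO libraries. The ratio of means was 6.72, without overlap (exact permutation p = 0.1, the smallest possible), and each β-SITO library lay above each vehicle library. Ccr1 had 7.95, 6.97 and 6.28 counts per 1000 in HO + Vehicle and 7.71, 8.82 and 7.53 in HO + β-SITO. These overlapped, with a ratio of 1.13 (exact permutation p = 0.3). For Ccr2 the ratio was 1.23, with overlap (exact permutation p = 0.2). Both depended on the markers: with Csf1r and Adgre1 alone the ratios were 1.52 for Ccr1 and 1.66 for Ccr2, and neither gene's groups overlapped (exact permutation p = 0.1 for each). Ccrl2 went from 121, 106 and 119 counts per 1000 to 2.17, 2.51 and 2.63, a 47.3-fold lower share (exact permutation p = 0.1). What part a change in macrophage number had in these levels was not tested.

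**Figure D4:**
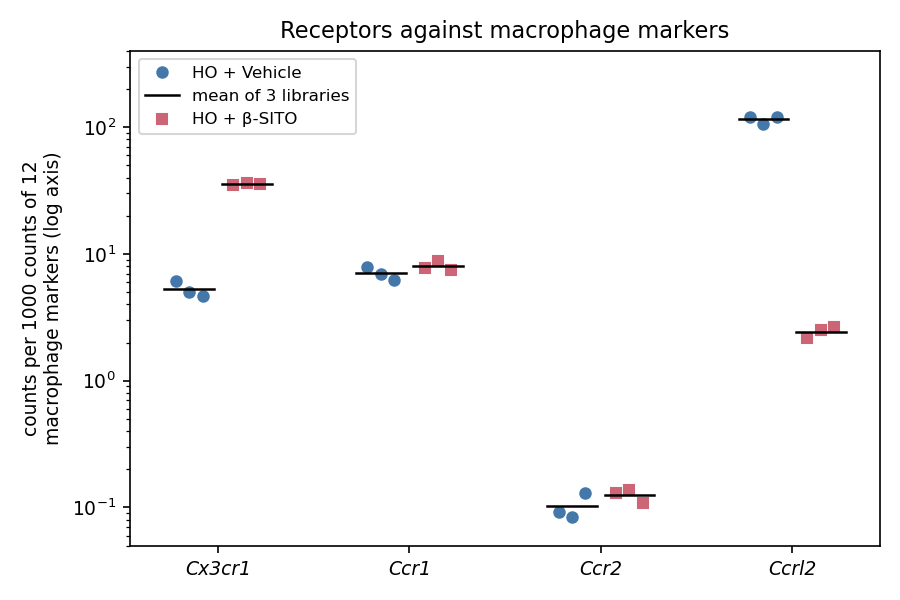
Counts of Cx3cr1, Ccr1, Ccr2 and Ccrl2 per 1000 counts of 12 macrophage markers in each library, on a log axis, with lines at the group means. Cx3cr1 and Ccrl2 are separated between the groups in opposite directions, and the points of Ccr1 and Ccr2 overlap with these 12 markers.

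Cx3cl1, Ackr1, Ackr3 and Cxcr4 are also known from endothelium, and endothelial markers moved too. Of 8 endothelial markers, 7 were higher DEGs and Flt1 was a lower DEG, and their sum was 676 to 793 CPM in HO + Vehicle and 883 to 938 in HO + β-SITO. Flt1 fell from 533 ± 48.5 to 104 ± 8.86 CPM and made up most of the vehicle sum, so the sum understates the rise of the other 7. Pecam1 rose from 50.6 ± 2.97 to 181 ± 4.09 CPM (log2 fold change 1.84). Mural markers summed to 1098 to 1190 and 1888 to 2137 CPM, with 3 of 6 as higher DEGs, and cardiomyocyte markers to 5921 to 6815 and 5371 to 9167 CPM, with T4 the lowest and 3 of 10 as higher DEGs. None of 7 fibroblast markers was a DEG. The part of these markers in the members' changes was not tested.

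Lymphocytes and neutrophils carry several of these receptors too. Cd3e and Cd3g had 0 counts in each of the 6 libraries, as had the neutrophil genes Ly6g and Retnlg. Other listed genes had a few counts, with 3 to 11 per library for S100a8 and 4 to 18 for S100a9. Klrb1c had 0 counts in each vehicle library and 2, 6 and 10 in the β-SITO libraries. Ms4a1, a B cell gene, had 4, 7 and 4 counts in HO + Vehicle and 0 in each β-SITO library. The 6 T and NK cell markers summed to 0.186 to 0.690 CPM in HO + Vehicle and 2.004 to 2.76 in HO + β-SITO, with Cd4 as the 1 tested gene and a higher DEG. Of 3 B cell markers 0 were tested. Of 5 neutrophil markers 1 was tested, Csf3r, the receptor gene of granulocyte colony-stimulating factor, which monocytes and macrophages can also express. It fell from 14.6 ± 0.606 to 3.42 ± 0.581 CPM (log2 fold change -2.08, edgeR adjusted p = 1.52e-09), and made up most of the summed neutrophil level of 14.7 to 16.05 CPM in HO + Vehicle and 3.32 to 5.55 in HO + β-SITO. The part of these cells in the members' levels was not tested.

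Downstream of the receptors the changes were smaller and mixed. Of 18 signalling genes, 4 were higher DEGs, 3 were lower DEGs, 9 passed the adjusted p within 2-fold and 2 did not pass, and the median log2 fold change was 0.18. The 4 that rose were Dock2 (log2 fold change 1.79) and Elmo1 (1.78), whose products activate RAC in migrating cells, the G protein gene Gng2 (1.36) and the phospholipase gene Plcb2 (1.15). Those that fell included the Src-family kinase gene Fgr (-1.09) and the PI3Kγ subunit gene Pik3r5 (-1.13). Gnai2, the Gi protein through which these receptors signal, had a log2 fold change of -0.06 (edgeR adjusted p = 0.371).

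Of 9 genes that end receptor signals, 2 were higher DEGs, 1 was a lower DEG, 4 passed the adjusted p within 2-fold and 2 did not pass. Rgs16, which shortens Gi signals, fell from 84.3 ± 2.64 to 16.3 ± 0.840 CPM (log2 fold change -2.37, edgeR adjusted p = 1.30e-13). Arrb1, the gene of β-arrestin 1, rose from 59.3 ± 5.82 to 164 ± 5.05 CPM (log2 fold change 1.47, edgeR adjusted p = 4.81e-11), and Rgs2 rose by a log2 fold change of 1.61.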

How the data were processed

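RNA-seq of the 6 libraries was available as whole-number counts per gene, which the authors deposited unnormalized in a single table. The submitters' processing notes name HISAT2, featureCounts and GRCm39, with no versions, and the counting options and strand setting are not given in the sources used here. For the library kit, the labels name Illumina and the study's methods ABclonal. Genes, groups and positions were taken from the table and the labels. Genes were filtered with filterByExpr (minimum count 10, leaving 14799 of 57010), scaled by TMM and tested with edgeR 4.0.16 in R 4.3.3 (quasi-likelihood test, group as the only term, Benjamini-Hochberg adjustment over all tested genes). DEGs had an adjusted p under 0.05 and more than a 2-fold change. The biological coefficient of variation was 6.52%. Intervals of fits are 95% intervals. Exact binomial intervals of summed counts cover counting error only. Levels per kb used merged exon lengths of GENCODE vM21, matched by gene identifier. That annotation is of an earlier genome build than the counts, so the exons counted may differ from those measured, also for Cx3cr1. Alternatives used limma 3.58.1 and DESeq2 1.42.0, and sequence steps used Python 3.11.15. The fit was tested on simulated counts, with large known changes placed in well-counted genes only. That simulation did not cover genes of few counts, such as Ackr2 and Ackr4, or smaller changes, such as that of Ccr1.

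The members, gene lists, motifs and tests were chosen with earlier results of these data known. Named genes were the 9 members, the other receptors and ligands with at least 10 counts in some library, at most 4 DEGs in each direction of the shedding, signalling and desensitization lists, defining markers, and the 3 nearest profiles of Cx3cr1 and of Cx3cl1. Genes with fewer counts, and other marker genes named beside a count of DEGs or a summed level, were named after their values were seen. Values of some genes of the lists are not reported here.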

Additional observations from a re-analysis of the deposited data

How the results depend on the processing

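No paired analysis was possible because the labels number the vehicle libraries 1 to 3 and the β-SITO libraries 4 to 6, with no number in common. Each alternative that tested a member kept its direction and its call: 15 of 15 for 7 members, and 14 of 14 for Ackr2, which a filter at 1 CPM in 3 libraries removed. These included DESeq2, limma-voom, a test against 2-fold, other scalings and filters, and leaving out each library. Dropping the fold threshold was also counted among them, but it used the same fit and could not undo a call. Log2 fold changes ranged from 3.77 to 4.01 for Cx3cr1, -1.83 to -1.62 for Cx3cl1, 1.22 to 1.44 for Ccr1 and 3.27 to 4.51 for Ackr2. Upper quartile scaling and library size alone moved the median of all genes to 0.14 and the share of DEGs that were higher from 55.9% to 63.7% and 63.9%. Under them the log2 fold changes turned sign for Cxcl12 (0.0317 and 0.0366), Gnai2 (0.0834 and 0.0884) and Grk3 (0.0682 and 0.0732). That of Grk3 ranged from -0.190 to 0.108 with a library left out, the positive value without β-SITO replicate 4. None of these passed the test.

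With no fold threshold, 5007 genes were lower and 4885 higher, and the lists held 1 ligand gene higher, 2 shedding genes higher, 7 signalling genes lower and 9 higher, and 2 desensitization genes lower and 5 higher. Signalling genes that were lower numbered 1 under a test against 2-fold, upper quartile scaling and library size alone. Ligand genes that were higher numbered 1 under upper quartile scaling and library size alone, and 0 to 1 with a library left out. Other receptors numbered 2 lower and 2 higher with every gene tested that had a count, and 1 to 2 higher with a library left out. With Csf1r and Adgre1 as the only markers, log2 ratios per marker were 3.18 for Cx3cr1, 0.61 for Ccr1, 0.73 for Ccr2 and -5.14 for Ccrl2. By library size alone, Ccrl2 stood at 60.2 CPM per kb in HO + Vehicle and 3.03 in HO + β-SITO. With the longest coding transcript as the length, chosen after seeing the data, CPM per kb in HO + Vehicle was 34.2 for Cx3cl1, 67.1 for Ccrl2, 16.9 for Ackr3 and 0.0522 for Ackr4, and in HO + β-SITO 10.1 for Cx3cl1, 3.04 for Ccrl2 and 1.67 for Ackr4, which put Ackr4 over Ackr2 in HO + Vehicle and Cx3cl1 over Ccr1 in HO + β-SITO. The cause of these moves was not tested. Depth limited Ccr2, Cxcr3 and Ccr10, whose counts were too few for the fit.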

Other observations

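Macrophage and monocyte genes outside the receptor family were split as well. Of 6 resident macrophage markers, 4 were higher DEGs and 1 was a lower DEG. Lyve1, a hyaluronan receptor gene, went from 13.7 ± 0.627 to 46.1 ± 3.56 CPM (log2 fold change 1.75). Folr2, a folate receptor gene, went from 2.42 ± 0.549 to 8.29 ± 0.220 CPM (log2 fold change 1.77). Cd163, a haemoglobin scavenger receptor gene, had 0, 0 and 2 counts in HO + Vehicle and 32, 36 and 32 in HO + β-SITO. It passed the count filter only through the β-SITO libraries (log2 fold change 5.19, 95% interval 3.97 to 6.40). Timd4, a receptor gene for dying cells, went the other way, from 1.29 ± 0.105 to 0.367 ± 0.177 CPM (log2 fold change -1.78, edgeR adjusted p = 0.000443). Of 6 monocyte markers, 3 were tested and 2 were lower DEGs. Plac8 fell from 109 ± 20.01 to 15.7 ± 0.786 CPM (log2 fold change -2.79). Of 4 lymphatic endothelial markers, 1 was a higher and 1 a lower DEG, the latter Pdpn, from 564 ± 17.6 to 93.6 ± 9.14 CPM. Prox1, another of these 4 markers, was at 24.9 ± 1.93 and 33.3 ± 2.57 CPM, and which cells of the culture held its RNA was not tested. These genes were named after their values were seen.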
